A study of Mus musculus with 35 samples.

Results

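The liver transcriptome of mice lacking E2f7 was set directly against that of mice lacking E2f8 at 2 months of age. The members were the 4 arrays of Albumin-Cre E2f7loxp/loxp livers and the 4 arrays of Albumin-Cre E2f8loxp/loxp livers, 8 of the 35 arrays of the series, chosen by the genotype and age in the labels. All 18193 genes with a probe set of their own were compared, and no wild-type array entered the comparison. Both groups were on an FVB background and carried Albumin-Cre, a recombinase transgene driven by the albumin promoter and active in hepatocytes. Livers were collected at the stated age and total RNA was hybridised to Affymetrix arrays. The main results also used the 4 arrays of Albumin-Cre E2f7loxp/loxp E2f8loxp/loxp livers at 2 months, which informed only the spread in the test. Wild-type control replicates 1 to 3 at 2 months (FVB) were given as a background. The same 3 knockout genotypes at 3 weeks, with 4 arrays each, were used for age. Alternative fits of all 35 arrays added Mx1-Cre E2f1-/- E2f2-/- E2f3loxp/loxp livers and wild-type replicates 4 and 5 at 2 months, and wild-type livers at 3 weeks. Wild-type replicates 4 and 5 had another distribution of values and were left out of the background. The labels give every array a sample number but name no animal, so p-values reflect only the spread among arrays.

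E2F7 and E2F8 are the atypical members of the E2F family of transcription factors. Unlike the other members they carry a pair of DNA-binding domains, bind without a DP partner, and repress promoters of cell cycle genes, E2f1 among them. In liver they are known for promoting the polyploidy of hepatocytes, and they are regarded as largely overlapping in function. The direct comparison of the single losses asks where one differs from the other.

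Because both factors act on E2F sites, the windows around the starts of the 2 deleted genes are shown, from 250 bases before to 50 after the start (RefSeq, GRCm38.p6). Capitals mark matches to any of 4 words of the E2F consensus. The first is TTGGCGC with its variant TTCCCGC where both middle letters change. The mixed words are TTCGCGC and the reverse mix TTGCCGC. Both strands were searched and matches could overlap. The E2f8 window lies on the minus strand at chr7:48881547-48881846 and the E2f7 window on the plus strand at chr10:110745189-110745488.
E2f8: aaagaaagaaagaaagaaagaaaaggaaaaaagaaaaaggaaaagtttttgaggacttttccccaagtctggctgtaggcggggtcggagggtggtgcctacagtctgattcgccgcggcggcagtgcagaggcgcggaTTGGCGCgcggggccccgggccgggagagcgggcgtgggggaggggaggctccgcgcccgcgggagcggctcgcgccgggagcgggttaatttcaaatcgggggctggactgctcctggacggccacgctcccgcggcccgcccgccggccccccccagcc
E2f7: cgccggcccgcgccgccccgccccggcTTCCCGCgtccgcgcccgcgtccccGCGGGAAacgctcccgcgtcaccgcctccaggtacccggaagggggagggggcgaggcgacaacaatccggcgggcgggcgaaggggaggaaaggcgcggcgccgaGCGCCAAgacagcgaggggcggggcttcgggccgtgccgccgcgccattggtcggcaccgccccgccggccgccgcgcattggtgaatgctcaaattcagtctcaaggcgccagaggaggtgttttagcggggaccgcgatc
The E2f8 window held 1 match and the E2f7 window 3. Such a match was found in 9.57% of 32851 windows of the same length, in 16% of the 14452 tested genes that had a window, and in 26 of 42 genes of a list of replication genes with a window (61.9%). A match is only a description of these letters.

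Few genes passed the test between the livers. Of 18193 genes, 28 (0.154%) passed limma's test (Benjamini-Hochberg adjusted p below 0.05) and are termed called genes, 12 of them higher in the E2f7 knockout (0.066%) and 16 higher in the E2f8 knockout (0.0879%). The arrays of the 2 groups did not overlap in any of the 28. Without calling, 570 genes (3.13%) had all E2f7 knockout arrays above all E2f8 knockout arrays and 386 (2.12%) the reverse. Among the called genes, the largest differences were at E2f8 itself and at Gm2788, a predicted gene that overlaps it, followed by Ppp1r14a and Trhde. Differences are given as E2f7 knockout minus E2f8 knockout on the log2 RMA scale, with the standard error of the fit.

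The 8 arrays had similar values in the few quality measures checked here. They correlated with each other across genes at 0.993 to 0.998, and with the double knockouts and wild-type replicates 1 to 3 they shared one distribution of values (15 arrays). The 3' minus 5' signal of the control Gapdh and Actb probe sets averaged 1.03 ± 0.04 (SD, n = 4) in the E2f7 and 1.05 ± 0.04 (SD, n = 4) in the E2f8 knockout (exact permutation test, two-sided, p = 0.429; the smallest p possible is 0.0286). Albumin, the defining hepatocyte transcript, was between 14.76 and 14.85 on all 8 arrays. Y-linked genes averaged 7.06 to 7.43 on every one of them.

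The E2f8 probe set was not lower but higher in the livers labelled E2f8 knockout. It read 9.65, 10.01, 10.56 and 10.30 in replicates 1 to 4 of the E2f8 knockout and 7.13, 7.79, 7.46 and 7.14 in the E2f7 knockout. The difference was -2.75 (SE 0.33, limma adjusted p = 0.00509), a signal 6.72-fold higher in the E2f8 knockout. Wild-type replicates 1 to 3 read 7.75, 7.44 and 8.58, and the double knockout averaged 9.26 ± 0.85 (SD, n = 4). A second E2f8 probe set differed in the same direction, by -0.97. Where these probes lie relative to the deleted part of the gene was not stated in the material used here, so the level does not check the deletion. The submitters state that genotypes were checked by PCR on DNA.

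Gm2788 ran the opposite way. In the RefSeq gene table its span shares 774 bases with that of E2f8. It read 9.0, 9.42, 9.64 and 8.95 in the E2f7 knockout against 6.66, 6.50, 6.32 and 6.65 in the E2f8 knockout, a difference of 2.72 (SE 0.15, limma adjusted p = 6.40e-07). The double knockout averaged 6.47 ± 0.19 (SD, n = 4), at the E2f8 knockout level, and wild-type replicates 1 to 3 read 10.18, 9.18 and 10.21. Thus all 8 arrays of the genotypes with floxed E2f8 were low and all other arrays shown at this age were high. Whether the probes of Gm2788 and E2f8 lie in the shared stretch was not stated in the material used here.

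E2f7 gave no such contrast. Its probe set read 5.44, 5.22, 5.89 and 5.17 in the E2f7 knockout and 5.18, 5.84, 5.42 and 5.03 in the E2f8 knockout, with overlapping groups and a difference of 0.06 (SE 0.17, limma adjusted p = 0.934, 95% interval -0.30 to 0.42). Wild-type replicates 1 to 3 read 5.41, 5.63 and 5.78, so the probe set did not separate E2f7 knockout from wild type either. At 2 months it checks nothing about the deletion. At 3 weeks the E2f7 knockout arrays were all below the E2f8 knockout arrays, by -0.33 (SE 0.11), which did not pass the test (limma adjusted p = 0.177). The activators of the family did not differ beyond their spread: E2f1 by -0.01 (SE 0.07), E2f2 by 0.14 (SE 0.10) and E2f3 by 0.13 (SE 0.09), with limma adjusted p of 0.971, 0.682 and 0.671. Of the 17 measured genes of the E2F and pocket protein family, 1 was called, E2f8.

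**Figure D1:**
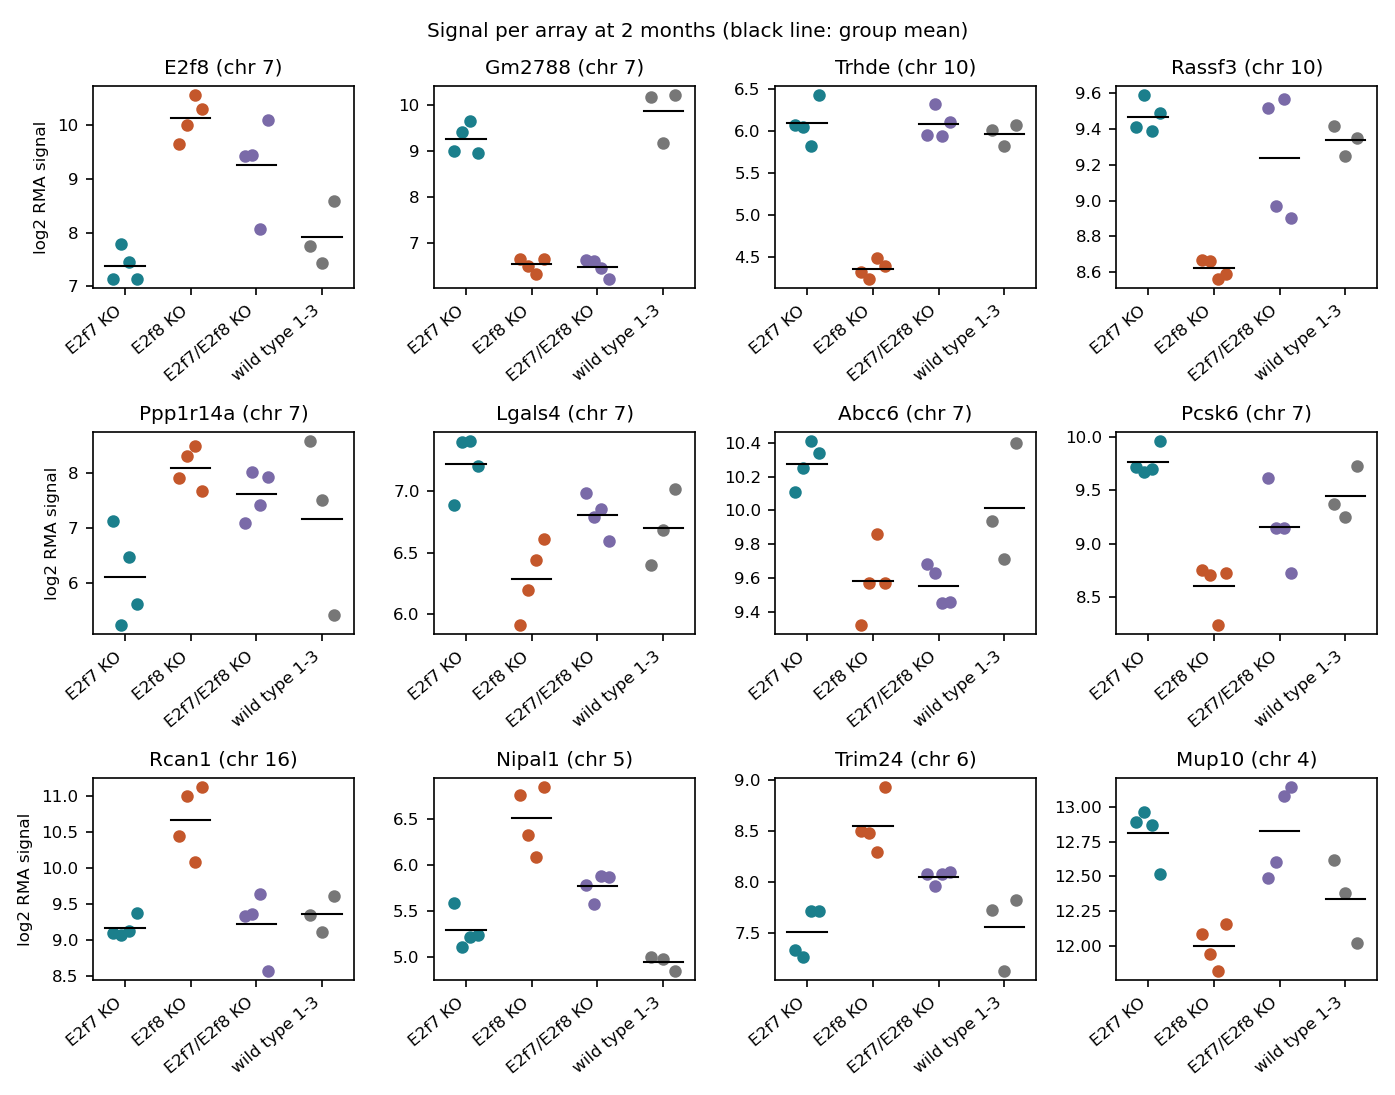
Log2 RMA signal of 12 called genes on each array at 2 months, by genotype (KO, knockout), with wild-type replicates 1 to 3; each panel has its own axis and the black line is the group mean. The E2f7 and E2f8 knockout arrays do not overlap in any panel, and at Gm2788 the double knockout averages 6.47, beside 6.53 in the E2f8 knockout.

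Genes higher in the E2f7 knockout were led, after Gm2788, by Trhde, an ectoenzyme that degrades thyrotropin-releasing hormone. Trhde read 6.08, 6.05, 5.82 and 6.43 in the E2f7 knockout and 4.33, 4.24, 4.49 and 4.40 in the E2f8 knockout, 1.73 apart (SE 0.11, limma adjusted p = 5.18e-06). Wild-type replicates 1 to 3 (6.01, 5.83 and 6.08) and the double knockout (6.08 ± 0.18, SD, n = 4) were at the level of the E2f7 knockout, so the E2f8 single knockout stood apart from all of them. Pcsk6, a proprotein convertase, read 9.72, 9.67, 9.70 and 9.96 against 8.76, 8.71, 8.24 and 8.73 (1.15, SE 0.16, adjusted p = 0.00943). Rassf3, of the Ras association domain family, read 9.41, 9.59, 9.39 and 9.49 against 8.67, 8.66, 8.56 and 8.59 (0.85, SE 0.13, adjusted p = 0.0191), but its other probe sets differed by only -0.13 and 0.12. At Rassf3 wild-type replicates 1 to 3 averaged 9.34 and the double knockout 9.24 ± 0.35 (SD, n = 4), both nearer to the E2f7 knockout. Trhde and Rassf3 lie 3.9 and 10.7 Mb from the start of E2f7 on chromosome 10. That chromosome had 2 called of 865 tested genes (0.231%), against 0.154% over all genes.

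Hepatocyte products were among the smaller differences. Mup10, a major urinary protein secreted by the liver, read 12.89, 12.96, 12.87 and 12.52 in the E2f7 and 12.09, 11.94, 11.82 and 12.16 in the E2f8 knockout (0.81, SE 0.14, adjusted p = 0.0403). Abcc6, a hepatocyte transporter of the ABC family, read 10.11, 10.25, 10.41 and 10.34 against 9.32, 9.57, 9.86 and 9.57 (0.69, SE 0.10, adjusted p = 0.0173). The groups did not overlap in either gene, as in every called gene. Wild-type replicates 1 to 3 read 12.62, 12.38 and 12.02 at Mup10 and 9.94, 9.71 and 10.40 at Abcc6, spread over much of the range between the knockouts. The remaining genes of this direction were Lgals4, a galectin (0.94), Hspb6, a small heat shock protein (0.68), Ppic, a cyclophilin (0.54), Tmem147 (0.47), Tns2, a tensin of focal adhesions (0.41), and Yif1b, of the secretory pathway (0.36).

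Genes higher in the E2f8 knockout included regulators of signalling and transport. Rcan1, an inhibitor of calcineurin, read 10.44, 11.00, 10.08 and 11.12 in the E2f8 knockout and 9.09, 9.06, 9.12 and 9.37 in the E2f7 knockout (-1.50, SE 0.23, adjusted p = 0.0191), with a second probe set at -1.19. Nipal1, of a family of magnesium transporters, read 6.77, 6.33, 6.09 and 6.85 against 5.59, 5.10, 5.21 and 5.24 (-1.22, SE 0.15, adjusted p = 0.00509). Trim24, a co-regulator of nuclear receptors whose loss causes liver tumours in mice, read 8.50, 8.48, 8.30 and 8.93 against 7.34, 7.27, 7.72 and 7.72 (-1.04, SE 0.13, adjusted p = 0.00509), and its other probe sets differed by -0.52 and -0.44. In Rcan1 the double knockout averaged 9.22 ± 0.46 (SD, n = 4), at the E2f7 knockout level, while in Trim24 it lay between the groups at 8.05 ± 0.06 (SD, n = 4). Slc10a2, the apical sodium-dependent bile acid transporter, read 7.39, 7.70, 7.34 and 7.94 against 6.37, 6.19, 5.93 and 7.01 (-1.22, SE 0.22, adjusted p = 0.0454). Lratd2 (-1.04), the kinase-dead receptor Ephb6 (-0.69), Sh3yl1 (-0.63), the phospholipid scramblase Plscr2 (-0.55), the scavenger receptor Colec12 (-0.47) and Wfdc2 (-0.43) completed the genes of this direction off chromosome 7.

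The calls depended on single arrays. Without E2f7 knockout replicate 1, 2, 3 or 4 the fit called 17, 10, 18 and 32 genes, and without E2f8 knockout replicate 1, 2, 3 or 4 it called 40, 17, 25 and 16. Of the 28 genes, 10 were called in all 8 of these fits: Gm2788, Trhde, E2f8, Nipal1, Trim24, Pop4, Hspb6, Pcsk6, Plscr2 and a further predicted gene on chromosome 7. With all 35 arrays in one fit, Nipal1 (adjusted p = 0.622), Trim24 (0.125), Pop4 (0.0989), Plscr2 (0.167) and that predicted gene were not called. A loss in 1 to 4 of the fits affected 6 genes and in 5 or more 12, among them Ppp1r14a, Rassf3, Rcan1, Slc10a2 and Mup10, whose highest adjusted p values were 0.131, 0.12, 0.109, 0.183 and 0.171. Each of the 28 kept its direction in all 8, which follows from the lack of overlap between the groups.

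Called genes lay close together on chromosome 7, which carries E2f8. This chromosome held 13 of the 28 called genes (46.4%) and 7.83% of the 18141 tested genes with a chromosome. All 13 lay within 21 Mb of the start of E2f8, from -20.1 to 17.1 Mb measured to the gene midpoint. In that window 13 of 408 tested genes were called (3.19%), beyond it 0 of 1012 by limma (81 at an unadjusted p under 0.05), and on the other chromosomes 15 of 16721 (0.0897%). The window was chosen after the positions were seen. Groups that did not overlap made up 59 of the 408 genes in the window (14.5%), 40 of those beyond it (3.95%) and 857 of the 16773 others (5.11%). Left out one at a time, E2f7 knockout replicate 2 and E2f8 knockout replicate 2 reduced the calls on the chromosome from 13 to 6 and 7, and the fit over all 35 arrays gave 6.

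**Figure D2:**
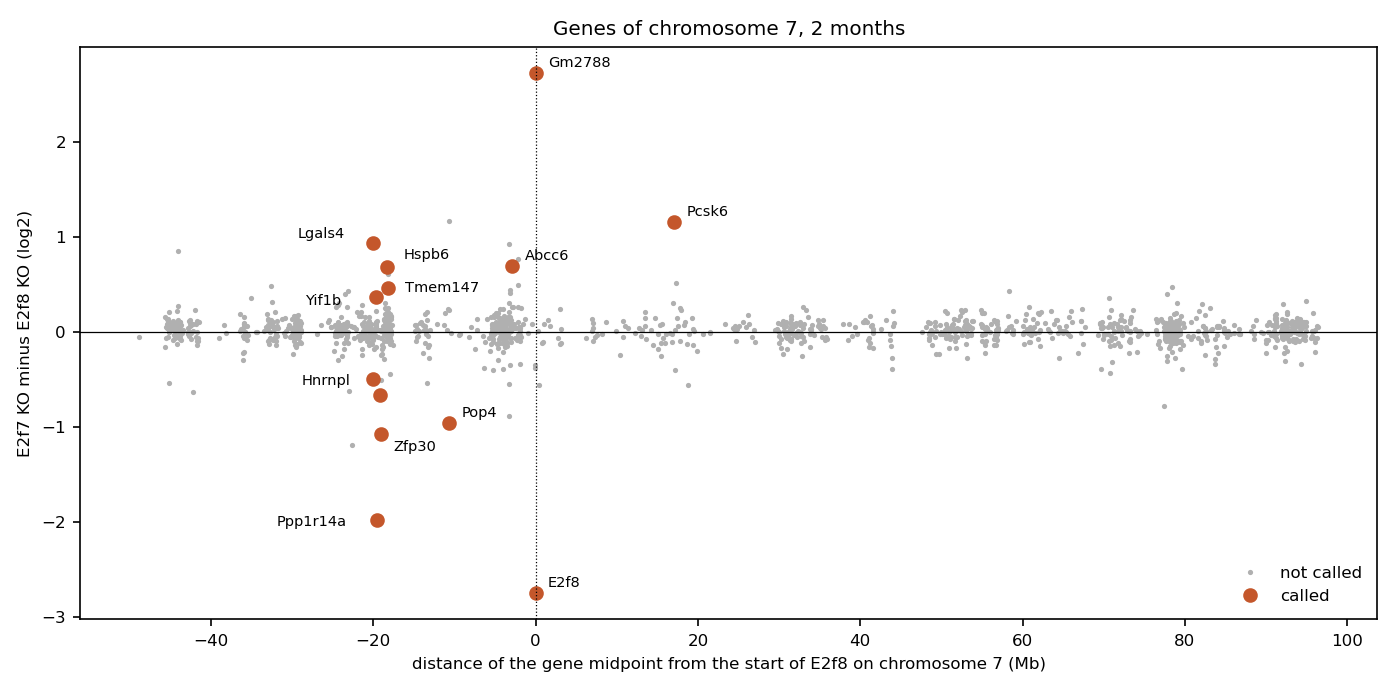
Difference between the knockouts (log2, vertical axis) of 1420 tested genes of chromosome 7 against the distance of the gene midpoint from the start of E2f8 (Mb). The 13 called genes, large points, lie between -20.1 and 17.1 Mb and differ in both directions, 7 higher in the E2f7 and 6 higher in the E2f8 knockout.

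Most of these genes lay together. Ppp1r14a, an inhibitor of myosin phosphatase, was -19.6 Mb away and read 7.14, 5.24, 6.48 and 5.63 in the E2f7 knockout against 7.92, 8.32, 8.49 and 7.68 in the E2f8 knockout (-1.98, SE 0.34, adjusted p = 0.0403). Lgals4, at -20.0 Mb, went the other way, with 6.89, 7.40, 7.41 and 7.21 against 5.91, 6.20, 6.44 and 6.61 (0.94, SE 0.15, adjusted p = 0.0204). The zinc finger gene Zfp30 differed by -1.08 at -19.1 Mb, the splicing factor Hnrnpl by -0.49 at -20.1 Mb, Yif1b by 0.36 at -19.6 Mb, Hspb6 by 0.68 at -18.3 Mb and Tmem147 by 0.47 at -18.2 Mb. In Zfp30 and Hnrnpl the other probe set was near 0, at -0.01 and -0.04. Nearer to E2f8 were Pop4, a subunit of RNase P, at -10.6 Mb (-0.96, SE 0.14, adjusted p = 0.0108) and Abcc6 at -2.9 Mb, and beyond it Pcsk6 at 17.1 Mb.

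The other genotypes were placed differently at these genes. On chromosome 7 the double knockout mean was nearer to the E2f8 than to the E2f7 knockout in 12 of 13 called genes, elsewhere in 3 of 15. This contrast was not tested. Among the 13 are E2f8 and the overlapping Gm2788, and the double knockout carries floxed E2f8 as well. Wild-type replicates 1 to 3 were not alike on chromosome 7. At Ppp1r14a they read 8.58, 7.52 and 5.43, at Pop4 7.83, 7.25 and 6.69, at Zfp30 7.20, 6.64 and 6.01, and at Hnrnpl 9.50, 9.14 and 8.88. On a scale from 0 at the E2f8 knockout mean to 1 at the E2f7 knockout mean, the 9 called genes over 10 Mb before E2f8 had a median of 0.02 in wild-type replicate 1, 0.52 in replicate 2 and 1.10 in replicate 3, with that order in 9 of 9. Wild-type arrays thus ran from the E2f8 knockout level to the E2f7 knockout level at these 9 genes, which lie close together. Abcc6 and Pcsk6, left out by this cut, did not have that order. Wild-type replicates 1 to 3 were at 0.520, 0.179 and 1.183 at Abcc6 and at 0.658, 0.553 and 0.974 at Pcsk6. For the 15 called genes on other chromosomes the wild-type medians were 0.94, 0.85 and 0.85. Double knockout replicates 1 to 4 had medians of 0.46, 0.08, 0.35 and 0.11 at the 11 chromosome 7 genes without E2f8 and Gm2788. Replicate 1 was nearer the E2f8 knockout mean in 6 of these and nearer the E2f7 knockout mean in 5. On other chromosomes the double knockout medians were 0.60, 0.74, 0.81 and 0.78. The scale was built on the called genes, so the knockout positions on it follow from the choice of genes, and only the wild-type and double knockout positions are informative. The source of the spread among the wild-type arrays was not tested.

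**Figure D3:**
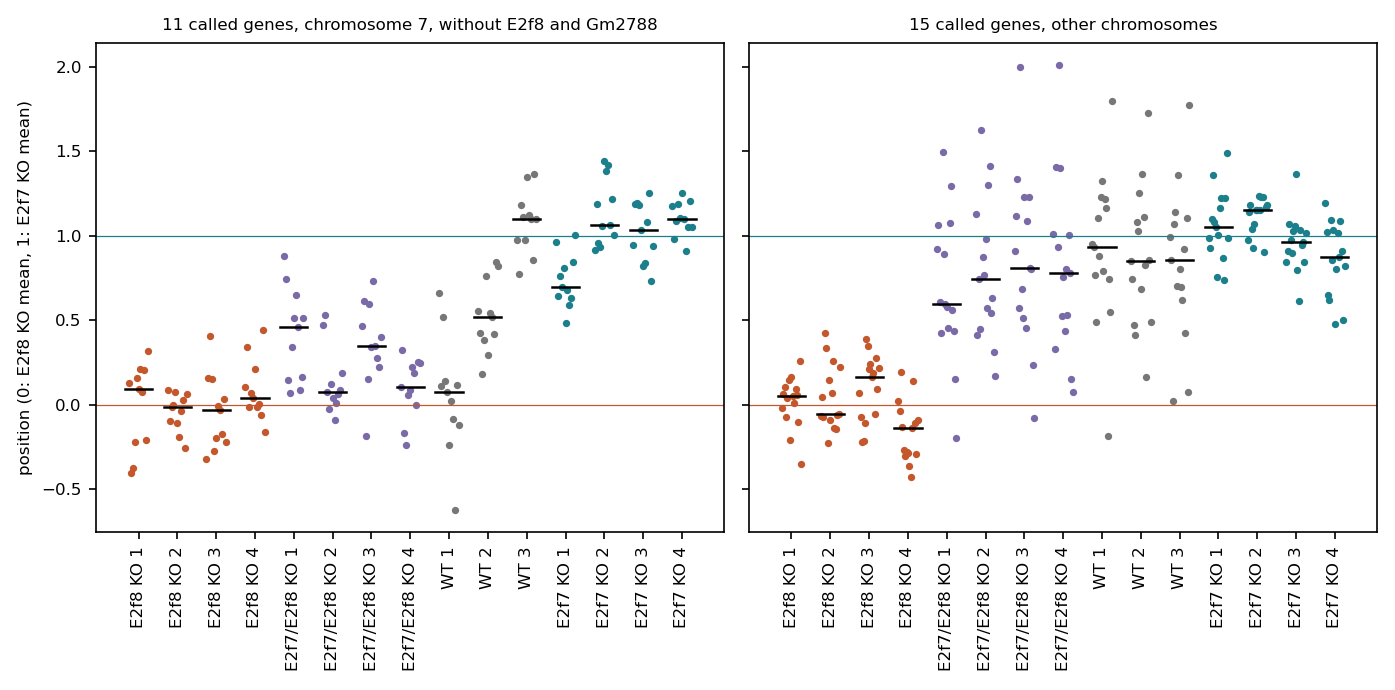
Position of each array at the called genes, where 0 is the E2f8 knockout mean and 1 the E2f7 knockout mean of the gene; dots are genes, bars the median of an array, WT is wild type. On chromosome 7 without E2f8 and Gm2788 (11 genes, left) wild-type replicates 1 to 3 have medians of 0.07, 0.52 and 1.10, and on other chromosomes (15 genes, right) 0.94, 0.85 and 0.85.

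At 3 weeks 265 genes were called between the same genotypes (1.46%), 136 higher in the E2f7 and 129 higher in the E2f8 knockout, and 1548 genes (8.51%) did not overlap. The genes called at 2 months had the same sign at 3 weeks in 22 of 28, counting Ephb6, whose 3-week difference was -0.00 (SE 0.17). On chromosome 7 this was 13 of 13 and elsewhere 9 of 15. The share of all genes with the same sign at both ages is not given here for comparison, and the chromosome 7 genes lie close together. Called at both ages were 8, each with the same direction at both: Gm2788, Trhde, E2f8, Pcsk6, Abcc6, Rassf3, Lgals4 and Ppp1r14a. Their 3-week differences were 4.03, 2.19, -1.23, 1.39, 1.19, 0.64, 0.96 and -1.66. On chromosome 7 lay 27 of the 265 calls at 3 weeks (10.2%). Nipal1, Slc10a2 and Sh3yl1, higher in the E2f8 knockout at 2 months, had 3-week differences of 0.64, 0.16 and 0.18 that did not pass the test.

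The change of the difference with age was called for 29 genes (0.159%), 9 with a more positive and 20 with a more negative difference at 2 months. Of the 28 genes called at 2 months 2 were among them. Gm2788 went from 4.03 at 3 weeks to 2.72, a change of -1.31 (SE 0.22, limma adjusted p = 0.00835). Mup10 went from -0.66 to 0.81, a change of 1.46 (SE 0.24, adjusted p = 0.00835). At 3 weeks its mean was 9.46 in livers lacking E2f7 and 10.12 in those lacking E2f8. The count moved with single arrays. Without E2f7 knockout replicate 1, 2 or 4 at 2 months it was 15, 17 and 55, and without E2f8 knockout replicate 2 or 4 at that age 15 and 17. At 3 weeks it was 16 and 14 without E2f7 knockout replicate 3 or 4, and 18 and 17 without E2f8 knockout replicate 1 or 3.

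**Figure D4:**
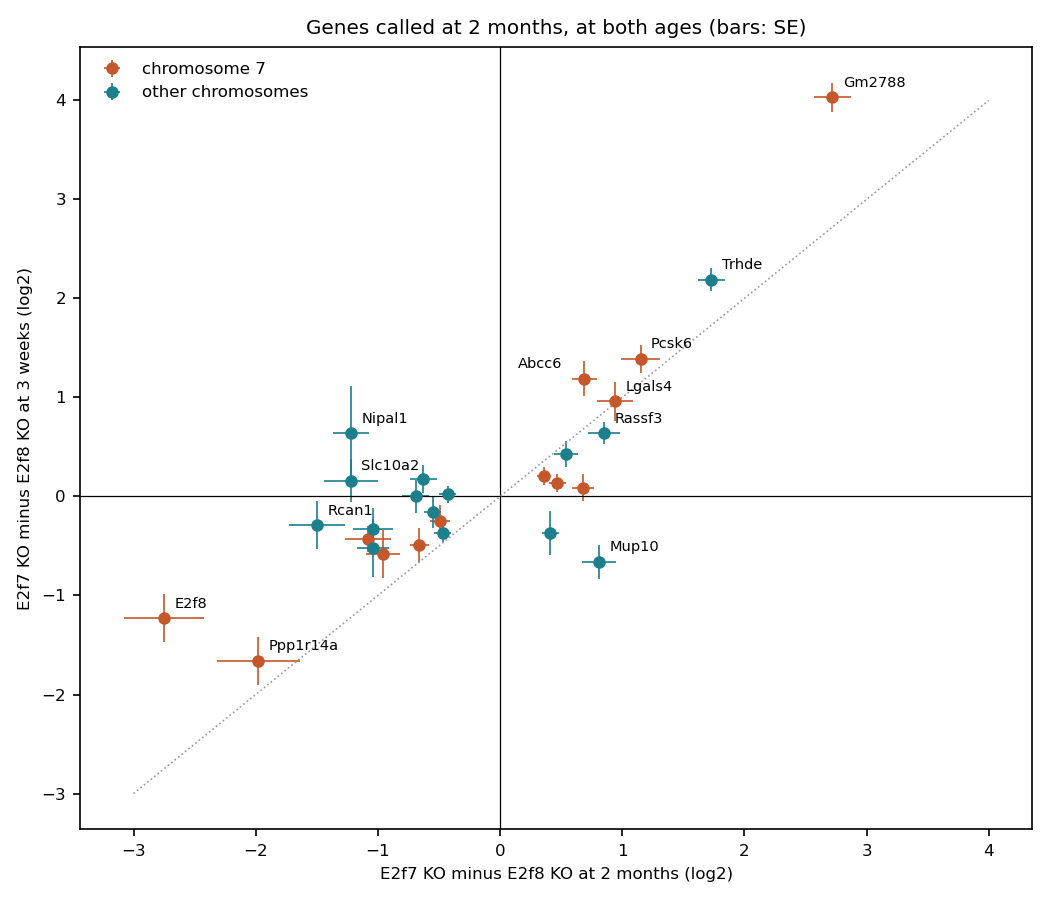
Difference between the knockouts at 2 months (horizontal) and at 3 weeks (vertical) for the 28 called genes, in log2 with standard errors as bars; the dotted line marks equal differences. All 13 genes of chromosome 7 have the same direction at both ages, while Mup10 is at 0.81 and -0.66.

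Lists of E2F target genes held no called gene. Of 52 measured genes of the G1/S and DNA replication list 0 were called, 29 had a higher mean in the E2f7 knockout and 23 in the E2f8 knockout, and the median difference was 0.01, against 0.015 over all genes. Cyclin E1 (Ccne1), which drives entry into S phase, read 6.89, 7.16, 7.04 and 7.10 against 6.87, 6.85, 6.72 and 6.79, 0.24 apart (SE 0.08, limma adjusted p = 0.337). It lies -10.8 Mb from E2f8. Of 61 mitosis and cytokinesis genes 0 were called, with a median of -0.00. The higher mean was in the E2f8 knockout for 31 of them, and for 39 after quantile normalization. Plk1, a mitotic kinase, differed by 0.12 (adjusted p = 0.575) and Ect2, needed for cytokinesis, by -0.36 (adjusted p = 0.35). In DNA repair (26 genes, median -0.00, 0 called) the E2f8 knockout arrays were above all E2f7 knockout arrays in Brca1 (-0.56, adjusted p = 0.101) and Ung (-0.55, adjusted p = 0.356). The other Brca1 probe sets differed by only -0.12, 0.09 and -0.16. In the repair list 13 of 26 genes had the higher mean in the E2f8 knockout, and 18 after quantile normalization. Among 23 p53 targets 0 were called, and Bbc3, which encodes the pro-apoptotic PUMA, differed by 0.48 (adjusted p = 0.172). Outside the E2F family list, limma called 0 of the 619 measured genes in the 36 lists, of which 98 (15.8%) had an unadjusted p under 0.05, against 1802 (9.9%) of all genes.

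Stress genes had mostly higher means in the E2f8 knockout, with none called by limma. In the heat shock list 12 of 12 measured genes had the higher mean there, with a median difference of -0.23 and 0 called (11 of 12 after quantile normalization). Over all genes the higher mean was in the E2f8 knockout for 7892 of 18193. Mean levels of this list per array were 10.36 to 11.14 in the E2f7 and 10.97 to 11.30 in the E2f8 knockout. They were 11.32 to 11.61 in wild-type replicates 1 to 3 and 11.00 to 11.92 in the double knockout. Hspa1b, an inducible HSP70, read 11.37, 11.85, 12.03 and 11.90 in the E2f8 knockout against 11.01, 11.05, 9.77 and 11.33 (-1.0, SE 0.33, adjusted p = 0.321). It averaged 12.08 in wild-type replicates 1 to 3 and 12.05 in the double knockout. At 3 weeks it differed by 2.02 the other way, and the change with age was called (-3.02, SE 0.46, limma adjusted p = 0.00785). Of 20 immediate early genes 14 had the higher mean in the E2f8 knockout (median -0.15, 0 called), with Jun at -1.22 (SE 0.23, adjusted p = 0.0626) and Ier2 at -0.35 (adjusted p = 0.155). Immediate early means were 7.01 to 7.32 in the E2f7 knockout, 7.35 to 7.65 in the E2f8 knockout, 7.31 to 7.61 in wild type and 7.27 to 7.45 in the double knockout. Of 23 genes of the unfolded protein and integrated stress response 17 had the higher mean in the E2f8 knockout (median -0.12, 0 called). The transcription factor Atf5, -4.1 Mb from E2f8, differed by -0.39 (adjusted p = 0.281). Atf5 read 11.83, 11.54 and 10.90 in wild-type replicates 1 to 3. Means of this list were 9.50 to 9.59 in the E2f7 knockout and 9.60 to 9.82 in the E2f8 knockout. Both lay below wild-type replicates 1 to 3 (9.98 to 10.04), and the double knockout had 9.80 to 10.16.

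Metabolic lists gave small median shifts, though single members differed more. Of 18 cholesterol synthesis genes 15 had the higher mean in the E2f7 knockout (median 0.19, 0 called), Fdps by 0.58 (adjusted p = 0.444) and Nsdhl by 0.45 (adjusted p = 0.56), both enzymes of the pathway. In the bile acid list this was 14 of 20 (median 0.17, 0 called), with the export pump Abcb11 at 0.33 and the uptake transporter Slco1a1 at 0.27. Of 19 genes of fatty acid synthesis 13 were higher in the E2f8 knockout (median -0.07). Angptl8, a liver hormone that acts on lipoprotein lipase, read 9.95 to 12.30 against 8.61 to 9.47 (-1.69, SE 0.48, adjusted p = 0.242), and at 3 weeks the difference was -2.52 (adjusted p = 7.50e-08). Fgf21, a fasting hormone -3.3 Mb from E2f8, differed by -0.55 (SE 0.10, adjusted p = 0.0579). The lists for the circadian clock, PPAR alpha, gluconeogenesis, acute phase, interferon, antigen presentation, glutathione and hypoxia genes held no called gene by limma, with medians from -0.03 to 0.08. Single members ran from -2.67 to 0.25 in the PPAR alpha list and from -0.14 to 1.35 in the gluconeogenesis list. In the acute phase list they ran from -1.35 to 0.76. The groups overlapped at these extremes.

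Markers of liver identity and zonation held no called gene. The 10 hepatocyte markers averaged 14.07 to 14.10 in the E2f7 and 14.08 to 14.09 in the E2f8 knockout. Of 18 pericentral and 15 periportal genes 0 were called (medians 0.03 and 0.01), and the Wnt targets Rnf43 and Axin2 differed by 0.46 and 0.24 (adjusted p = 0.338 and 0.431). Of 12 male-biased genes 11 had the higher mean in the E2f7 knockout (median 0.25), and of 16 female-biased genes 11 in the E2f8 knockout (median -0.10), with 0 called in either. Single members ran from -0.09 to 1.08 in the male-biased and from -1.86 to 1.01 in the female-biased list. Xenobiotic metabolism (25 genes, median -0.02) included Cyp2c37 at -0.59 (adjusted p = 0.101) and Ces2a at 0.32 (adjusted p = 0.284). In the fetal liver list (14 genes, median 0.08) Scd2 differed by 0.70 and Afp by 0.30, where Scd2 read 8.33 in E2f7 knockout replicate 3 and 6.49 to 6.58 in the other three.

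None of the markers of other cell types was called by limma. Stellate cell and fibroblast markers had the higher mean in the E2f7 knockout in 13 of 14, with a median of 0.42 and 0 called. Their mean level was 8.09 to 8.63 on the E2f7 knockout arrays and 7.60 to 8.00 on the E2f8 knockout arrays, without overlap. It was 8.01 to 8.34 in wild-type replicates 1 to 3 and 7.79 to 8.17 in the double knockout. Such a lack of overlap was not particular to this list. It was also seen for adipose markers (5.30 to 5.39 against 5.15 to 5.29) and for the immediate early, unfolded protein and bile acid lists. Lum, a collagen-binding proteoglycan, read 8.65, 8.22, 8.27 and 8.24 against 7.60, 7.65, 7.23 and 6.84 (1.01, SE 0.20, adjusted p = 0.081), and Col1a2 differed by 0.81 (adjusted p = 0.187). Macrophage and Kupffer cell markers were higher in 14 of 16 (median 0.26; 8.39 to 8.70 against 8.09 to 8.53) and endothelial markers in 14 of 16 (median 0.15; 8.12 to 8.48 against 7.90 to 8.25), with overlap between the groups in both lists. Fewer cells of a type and less RNA per cell cannot be told apart in bulk tissue, and the part of these cells in the called differences was not tested. Cholangiocyte, T and NK cell, B cell, neutrophil, erythroid, pancreas, adipose and muscle lists had medians between -0.02 and 0.13.

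**Figure D5:**
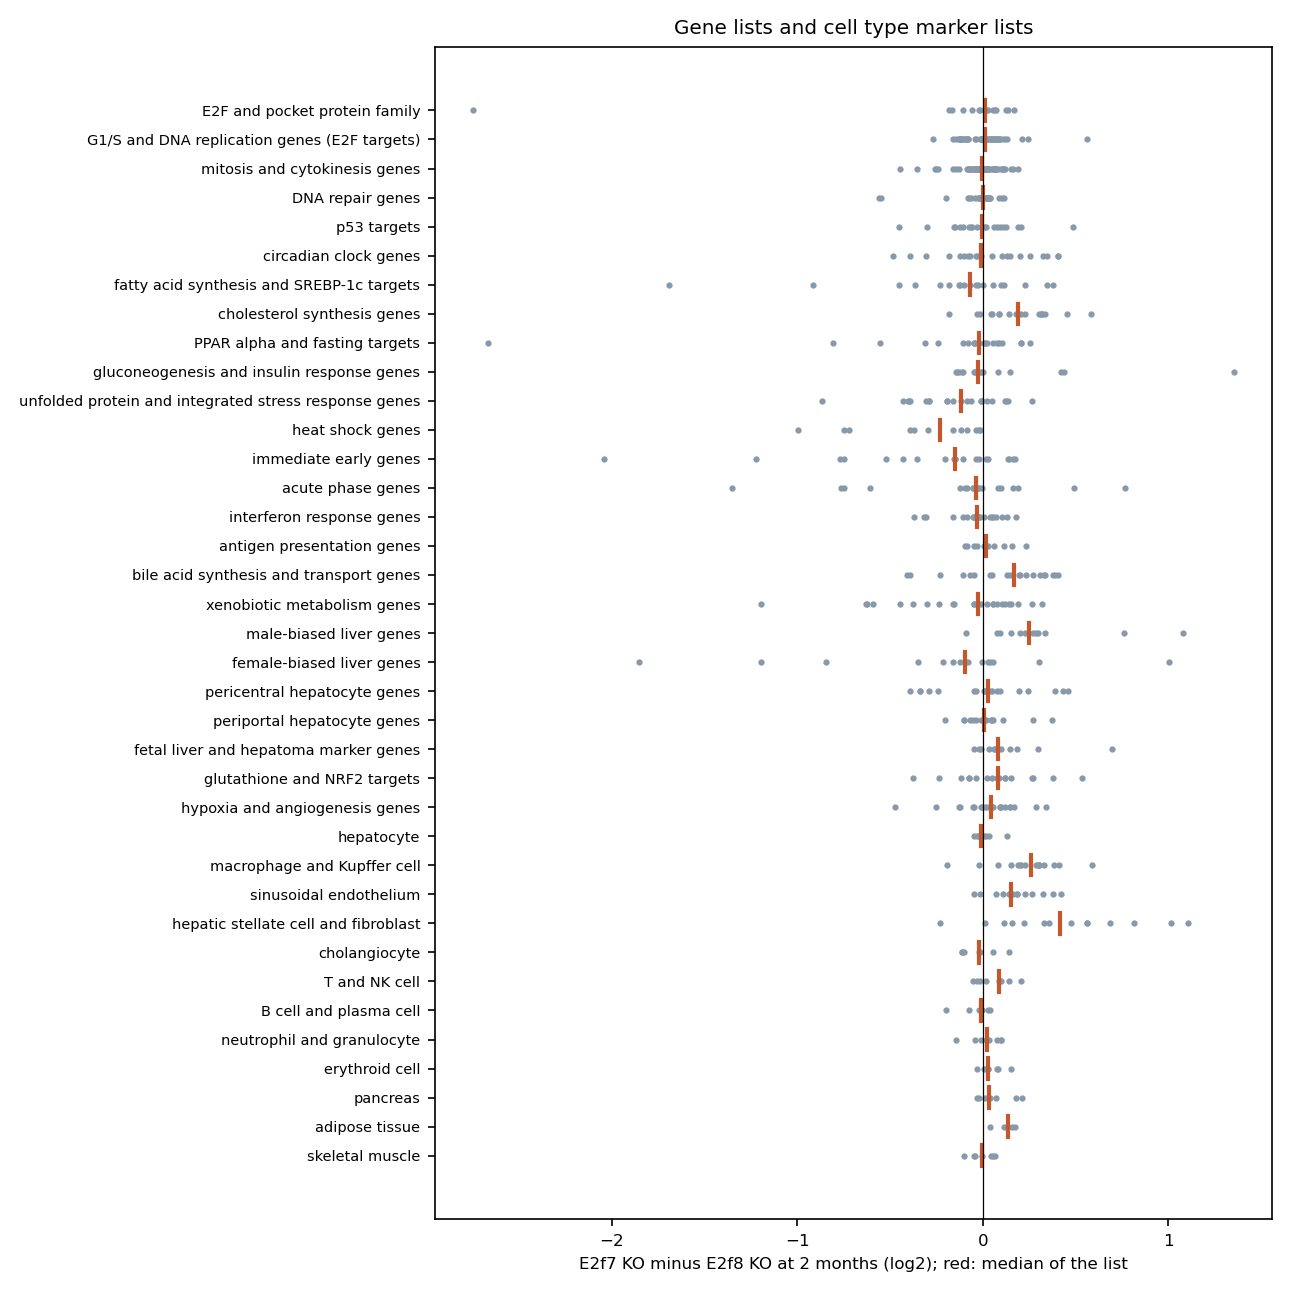
Difference between the knockouts at 2 months (log2) for the measured members of each gene list and cell type marker list; dots are genes and the red bar is the median of the list. Medians run from -0.23 for heat shock genes to 0.42 for stellate cell and fibroblast markers, and the dot farthest to the left in the top row is E2f8 at -2.75.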

How the data were processed

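Liver RNA of 35 samples in 9 groups was measured on Affymetrix arrays, and 8 samples are compared here. The deposited values are on a log2 scale: the authors used RMA (background correction, normalization and probe summary), version unstated, per the submitters' processing notes. Arrays have no read depth, and 4 per group limits the precision. Of 45101 probe sets, 64 were controls, 34945 carried 1 gene symbol, 932 several and 9160 none. Each of 18193 genes was represented by its single-symbol probe set with the highest average signal across the 35 arrays.

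Genes were tested with limma 3.58.1 in R 4.3.3 (lmFit, eBayes with an intensity trend) on the 12 Albumin-Cre knockout arrays at 2 months, with 9 residual and 4.82 prior degrees of freedom, with the Benjamini-Hochberg adjustment over all genes and a threshold of 0.05. The 3-week difference came from 12 arrays and its change with age from 24. Adjusted p-values of single genes are from limma. The script was tested on simulated data. RNA quality was compared by exact permutation in Python 3.11.15, and figures used matplotlib 3.10.9. Gene positions and promoter windows are RefSeq's (GRCm38.p6). The files name no build, so only the chromosome and distances are used for genes.

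Named were the E2F genes, the 10 largest differences per direction among called genes, and up to 2 members per list, the called ones or else those without overlap and with the largest difference. Gm2788 was named as an exception to leaving out predicted genes. Yif1b, Hnrnpl, Sh3yl1, Plscr2, Colec12 and Wfdc2 were named after their values were seen. The members, the 25 gene lists, the 12 cell type lists and the rule were chosen with earlier results of these data known. Alternatives were the 8 arrays alone, all 35 with a term for the distribution of values, quantile normalization, median centring, a fit without the dimmest 40 percent of genes, averaging a gene's probe sets, a variance with no trend, array weights, a replicate block, and a fit without each array in turn.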

Additional observations from a re-analysis of the deposited data

Results flagged for a closer look

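In the groups of 4 arrays, 7 of the 122 tested for the 61 named genes had 1 array far from the others by Dixon's criterion at the 95% level, and chance flags about 1 in 20 such groups. Pcsk6 read 8.24 in E2f8 knockout replicate 3 and 8.71 to 8.76 on the other arrays of the group. Plscr2 read 7.17 in the same replicate and 7.36 to 7.39 on the others. Fgf21 read 5.99 in E2f7 knockout replicate 3 against 6.41 to 6.47, and Scd2 read 8.33 there against 6.49 to 6.58. Lum read 8.65 in E2f7 knockout replicate 1 against 8.22 to 8.27. Abcb11 read 11.39 in E2f7 knockout replicate 4 against 11.59 to 11.62, and 11.36 in E2f8 knockout replicate 4 against 11.17 to 11.20.

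For 3 named genes the difference between the knockouts changed with age by limma. Gm2788 differed by 2.72 at 2 months and 4.03 at 3 weeks, a change of -1.31 (adjusted p = 0.00835). Mup10 differed by 0.81 and -0.66, a change of 1.46 (adjusted p = 0.00835). Hspa1b, a heat shock gene, differed by -1.0 and 2.02, a change of -3.02 (adjusted p = 0.00785).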

How the results depend on the processing

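Against 28 genes called at 2 months, all 35 arrays gave 14, which held 9 of the 28; Nipal1, Trim24, Pop4 and Plscr2 were among those not called there. The 8 arrays alone gave 23, with 18 of the 28. Leaving out the dimmest 40 percent of genes gave 17 (fewer genes tested), each among the 28, and array weights gave 81 with all 28. Leaving out each array gave 10 to 40. The other alternatives gave 22 to 31 except the replicate block. With the replicate number as a block 39 genes were called, 23 of them among the 28; Mup10, Ppic, Tns2, Ppp1r14a and Zfp30 were not. Same-numbered arrays correlated at 0.21, -0.15, 0.32 and 0.28 in their deviations from the group mean, and since not every number correlated, the numbers were not taken as pairs. That 6 of 8 arrays correlated best with their own number is a hint from the data, not from the design. Of the 28, 5 were called under each of the 17 alternatives in which they were tested (Gm2788, Trhde, E2f8, Hspb6 and Pcsk6). Trhde was too dim for the filter. None of the 28 changed direction under the 17, which for a left-out array follows from the lack of overlap. Against 29 genes whose difference changed with age, the 16 single knockout arrays gave 58, all 35 arrays 9 and leaving out the dimmest 40 percent 50, and leaving out each array gave 14 to 55. The cause of these changes was not tested. Differences near 0 turned sign: E2f1 was 0.041 with the mean of its probe sets, 0.015 without E2f7 knockout replicate 1 and 0.047 without E2f8 knockout replicate 1 (range over left-out arrays -0.06 to 0.05), and E2f7 was -0.085 with array weights, -0.089 without E2f7 knockout replicate 3 and -0.047 without E2f8 knockout replicate 4 (range -0.09 to 0.22). The chromosome 7 count, an alternative added after seeing the data, ran from 6 to 19. Dim probe sets such as that of E2f7 limit what can be seen.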
